A study of Mus musculus with 9 samples.

Results

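Oligodendrocyte lineage regulators were followed in the mouse striatum after methamphetamine (METH) or MPTP. The set holds 8 genes named for their role in the lineage: the transcription factor genes Sox10, Olig1, Olig2 and Sox8, and the cell surface genes Plxnb3, Pdgfra, Cspg4 and Gpr17. Every probe set (a group of short oligonucleotides summarised into 1 signal) annotated to a single one of these symbols was taken. This gave 10 probe sets for 6 of the 8 genes, out of 20380 probe sets for 12393 genes: 3 for Sox10, 2 each for Pdgfra and Cspg4, and 1 each for Olig1, Olig2 and Plxnb3. Sox8 and Gpr17 had no probe set under this rule and were not analysed here. The members were chosen by role and selected on earlier results of these arrays, among them the METH and MPTP differences of Sox10, Plxnb3 and Olig2. The differences between groups are therefore a description of the members, and the only test result given for them is how many passed across all genes.

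RNA came from the left and right striatum of male C57BL/6J mice aged 56 days, and 1 single-colour Affymetrix array was used per mouse. There were 3 saline-injected controls, 3 mice injected with METH, a psychostimulant that releases dopamine and harms dopamine terminals at high doses, and 3 injected with MPTP, whose metabolite is toxic to dopamine neurons. Both toxins serve as models of Parkinson's disease, and the comparisons ask which striatal transcripts differ after each. The labels state no dose, schedule or time of dissection. The arrays of a group are biological replicates per the labels. The striatal markers Ppp1r1b, Penk, Drd2 and Tac1 lay between the 96.3 and 99.9 percentiles of signal on every array. Array medians were 1110.5 to 1233, and METH 2 stood apart with the highest median and the narrowest spread, 6.25 log2 units from the 10th to the 90th percentile where the others had 6.40 to 6.69.

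Oligodendrocytes make the myelin of the brain and arise from precursor cells that persist in the adult. Olig1 and Olig2 encode basic helix-loop-helix factors that specify the lineage, and Sox10 encodes an HMG-box factor, kept through all its stages, that switches on myelin genes together with Myrf. Precursors carry the PDGF receptor alpha (Pdgfra) and the proteoglycan NG2 (Cspg4), which are lost as the cells mature. In bulk tissue, fewer cells of a type and less RNA per cell cannot be told apart.

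The mean signal of Sox10 was higher in both toxin groups than in control, but the size of the METH difference depended on the probe set. Probe set 1451689_a_at, the one with the highest mean, gave a 1.56-fold difference in METH, while 1425369_a_at gave 1.25-fold and 1424985_a_at gave 1.08-fold. In MPTP the 3 probe sets lay close together, at 1.26-fold, 1.26-fold and 1.17-fold. Probe sets 1451689_a_at and 1425369_a_at are annotated to the same source sequence, and the ending of all 3 names marks probes that match several transcripts of 1 gene. The probe set sequences and their positions along Sox10 were not used here.

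On 1451689_a_at the Sox10 signal was 3033, 3398 and 3037 in control 1, 2 and 3. Arrays METH 1, 2 and 3 gave 5057, 5160 and 4517, and arrays MPTP 1, 2 and 3 gave 4227, 3709.9 and 4038. The 3 groups did not overlap, with METH above MPTP and MPTP above control. The means were 3156 ± 209.6, 4911 ± 345 and 3992 ± 262 (SD, n = 3 each). The log2 difference from control was 0.64 ± 0.10 in METH and 0.34 ± 0.10 in MPTP (± is the SE of a limma fit over all probe sets).

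On 1424985_a_at the Sox10 signal was 3229, 3322 and 3243 in control, 3529.7, 3400.2 and 3673 in METH, and 3965, 4079.5 and 3431 in MPTP. All toxin arrays lay above all control arrays, and METH and MPTP overlapped, with MPTP 1 and MPTP 2 the highest arrays. The log2 difference was 0.11 ± 0.10 in METH and 0.22 ± 0.10 in MPTP, so this probe set had its larger value in MPTP. The METH difference was about as large as its SE, although the control arrays were tight, with a coefficient of variation of 1.54%.

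On 1425369_a_at the Sox10 signal was 1567, 2004 and 1733 in control, 1953, 2473 and 2196 in METH, and 2013, 2355 and 2275 in MPTP. Control 2 reached above METH 1, so control and METH overlapped, while every MPTP array lay above every control array. The log2 differences were 0.32 ± 0.14 in METH and 0.33 ± 0.14 in MPTP.

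**Figure D1:**
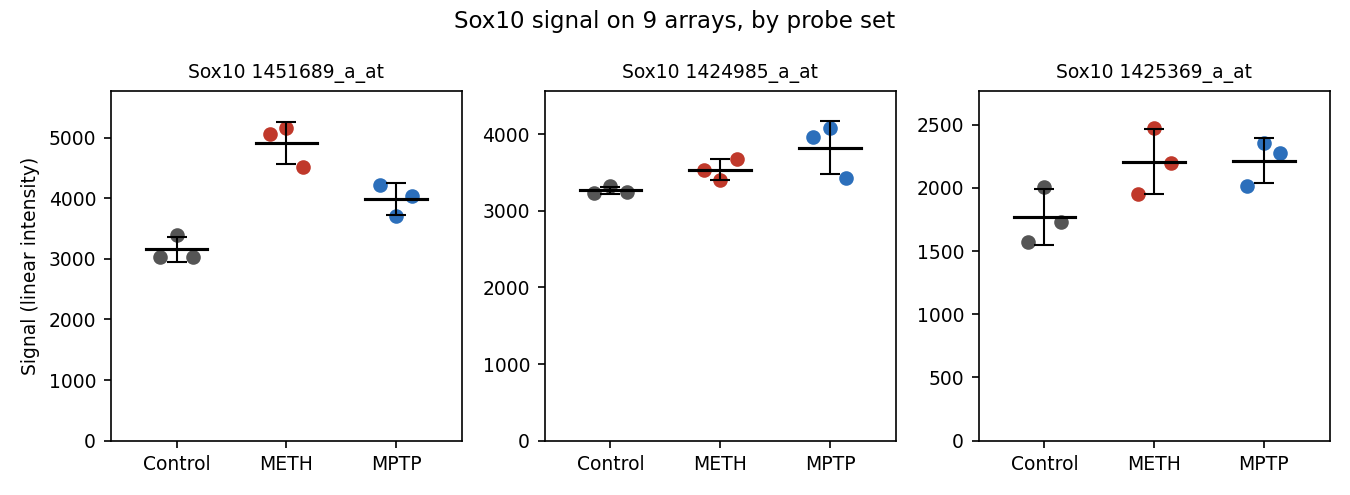
Linear signal of the 3 Sox10 probe sets on each of 9 arrays, by group (points: arrays; black line: mean; bars: SD, n = 3). The METH arrays stand clear of control and MPTP on 1451689_a_at (4517 to 5160 in METH) and sit close to control on 1424985_a_at (3400.2 to 3673 in METH).

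The METH differences of the Sox10 probe sets spanned 0.524 log2 units. Among the 683 genes with exactly 3 probe sets over the signal filter, the median span was 0.251, and 9.08% of genes spanned as much as Sox10 or more. In MPTP the span was 0.114, and 80.5% of these genes had one at least as wide. Sox10 was chosen with its differences from control known, and they enter these spans, so nothing is read from these shares. With the mean of all its probe sets in place of the highest, the Sox10 value in METH was 0.36 ± 0.08 and the METH minus MPTP value went from 0.30 to 0.06.

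Olig1, which lay between the 95.2 and 96.6 percentiles of signal on every array, differed little between groups. Its signal was 15730.4, 12939 and 14049 in control, 15039, 14449 and 15555 in METH, and 16168, 16136 and 13969.9 in MPTP. All 3 groups overlapped. The log2 difference was 0.08 ± 0.11 in METH and 0.12 ± 0.11 in MPTP.

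Olig2, which lies on chromosome 16 as Olig1 does, was higher in the MPTP striatum and close to control in the METH striatum. Its signal was 2023, 2347 and 2249 in control, 2182, 2161.5 and 2456 in METH, and 2668, 3035 and 2557 in MPTP. Every MPTP array lay above every control array and every METH array, while METH and control overlapped. The log2 difference was 0.32 ± 0.11 in MPTP, a 1.25-fold difference, and 0.04 ± 0.11 in METH. METH minus MPTP was -0.28 ± 0.11, the opposite sign to that of Sox10 on 1451689_a_at (0.30 ± 0.10) and the same sign as on 1424985_a_at (-0.11 ± 0.10).

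Plxnb3 encodes plexin B3, a semaphorin receptor found in the oligodendrocyte lineage and bound by semaphorin 5A. Its signal was 1101, 1195 and 1219.6 in control, 1525, 1585 and 1860 in METH, and 1711, 1703 and 1631 in MPTP. All 6 toxin arrays lay above all control arrays, and METH and MPTP overlapped. The means were 1172 ± 62.5, 1657 ± 179 and 1682 ± 44.1 (SD, n = 3 each). The log2 difference was 0.50 ± 0.10 in METH and 0.52 ± 0.10 in MPTP, 1.41-fold and 1.44-fold, and METH minus MPTP was -0.03 ± 0.10.

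Promoters are shown for Plxnb3 and Olig2, the members other than Sox10 with a toxin group clear of control, because Sox10 and Olig factors bind short DNA motifs. The RefSeq promoter table (GRCm38.p6, 250 bases before to 50 after the start of the gene) held 5 of the 8 members; Sox10 and Olig1 were not among them. The motifs searched on both strands were ACAAAG and ACAATG, forms of the core bound by SOX proteins, and CAGCTG, an E-box of the kind bound by basic helix-loop-helix factors; the 3 do not overlap each other in these windows. Matches are in capitals, 5′ to 3′ on the plus strand, for Plxnb3 at chrX:73756853-73757152 and Olig2 at chr16:91225300-91225599.
Plxnb3: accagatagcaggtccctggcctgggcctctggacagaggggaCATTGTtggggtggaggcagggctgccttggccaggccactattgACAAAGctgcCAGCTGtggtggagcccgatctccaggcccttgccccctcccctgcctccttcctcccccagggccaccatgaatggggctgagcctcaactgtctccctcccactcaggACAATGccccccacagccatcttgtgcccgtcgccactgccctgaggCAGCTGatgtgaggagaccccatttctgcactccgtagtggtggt
Olig2: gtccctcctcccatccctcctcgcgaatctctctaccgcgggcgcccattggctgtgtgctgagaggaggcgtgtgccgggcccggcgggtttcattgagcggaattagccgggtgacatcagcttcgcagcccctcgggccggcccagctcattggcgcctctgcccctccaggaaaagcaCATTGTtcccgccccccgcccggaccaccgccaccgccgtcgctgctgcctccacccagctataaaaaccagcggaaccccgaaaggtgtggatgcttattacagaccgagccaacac
The Plxnb3 window held all 3 motifs: ACAAAG once, ACAATG on each strand, and CAGCTG at 2 places. The Olig2 window held ACAATG once, on the opposite strand, so that the printed strand shows CATTGT. Of 32851 promoters of this length, 18.7% held ACAAAG, 12.6% ACAATG and 16.3% CAGCTG. The windows of Pdgfra, Cspg4 and Sox8 held none of these motifs. A match describes the sequence and is not a binding site.

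Pdgfra, the receptor through which PDGF drives precursors to divide, overlapped between all groups on both probe sets. On 1421917_at its signal was 2788, 2733 and 2456 in control, 2840.3, 2127.5 and 2362 in METH, and 2874, 2881 and 2640.1 in MPTP. METH 2 was the lowest array and MPTP 2 the highest. The log2 difference was -0.13 ± 0.13 in METH and 0.07 ± 0.13 in MPTP. On the dimmer 1421916_at METH 2 was instead the highest array, 1633 against 763 and 903 in METH 1 and METH 3, and the differences were 0.02 ± 0.28 and 0.21 ± 0.28.

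Cspg4 gave the closest group means of the set. On 1450944_at its signal was 1495, 1742 and 1286 in control, 1419.9, 1631 and 1410.2 in METH, and 1477, 1567 and 1478 in MPTP. The log2 differences were -0.01 ± 0.13 in METH and 0.01 ± 0.13 in MPTP. The other probe set, 1423341_at, was the 1 of 10 that fell under the signal filter (741), with values of 67.1 to 555 and differences of -1.25 ± 0.58 and -0.35 ± 0.58. Pericytes also carry Cspg4, and fibroblasts of the vessel wall Pdgfra. The summed signal of the 11 pericyte and fibroblast markers tested was 34472 to 38306 in control mice, 31995 to 35769 after METH and 32600 to 35873 after MPTP. The groups overlapped in this sum, and its part in the Pdgfra and Cspg4 values was not tested.

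**Figure D2:**
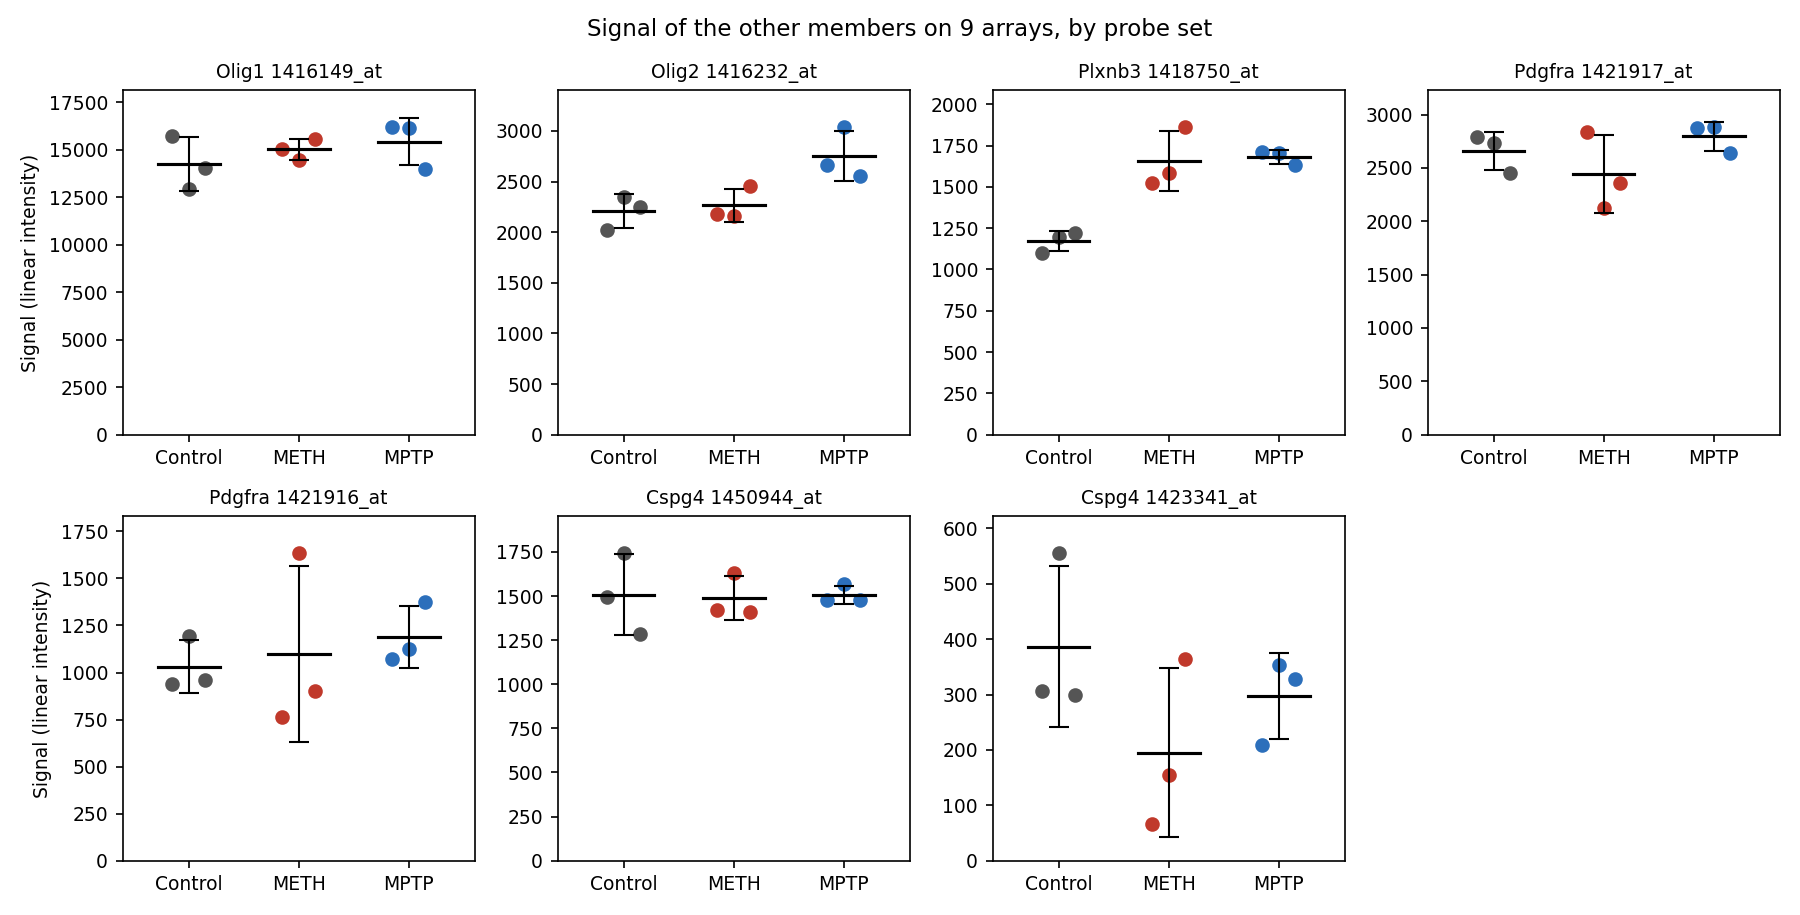
Linear signal of the 7 probe sets of Olig1, Olig2, Plxnb3, Pdgfra and Cspg4 on each array, by group (points: arrays; black line: mean; bars: SD, n = 3). Plxnb3 is higher on all toxin arrays (1525 to 1860) than on the control arrays (1101 to 1219.6), and Olig2 is higher on the MPTP arrays (2557 to 3035).

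Counted over probe sets, METH arrays lay above all control arrays for 3 of 10 members' probe sets (2 of Sox10, and Plxnb3) and below for 0. Over the 20380 probe sets with 1 symbol, 7.23% lay above and 5.23% below. In MPTP 5 of 10 lay above all control arrays (3 of Sox10, Olig2 and Plxnb3) and 0 below, against 6.15% above and 4.51% below over all probe sets. Because the set was built around some of these differences, nothing is read from these shares. The 2 comparisons share their control arrays. METH lay above all MPTP arrays for 1 probe set, Sox10 1451689_a_at, and below for 1, that of Olig2, where 4.46% and 3.43% of all probe sets did so.

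In the limma fit over 7964 genes, 0 of the 6 members passed at an adjusted p under 0.05 in METH, MPTP or METH against MPTP. Of all genes 1 passed in each comparison with control (0.0126%), the astrocyte filament gene Gfap in both, and 0 (0%) in METH against MPTP, where 227 genes (2.85%) had an unadjusted p under 0.05. The members were chosen with such differences known, and nothing is read from their count. The median log2 difference of the 6 members was 0.06 in METH and 0.22 in MPTP, and that of all genes 0.00 and 0.01. The members' medians rest on the same choice, so nothing is read from them either.

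**Figure D3:**
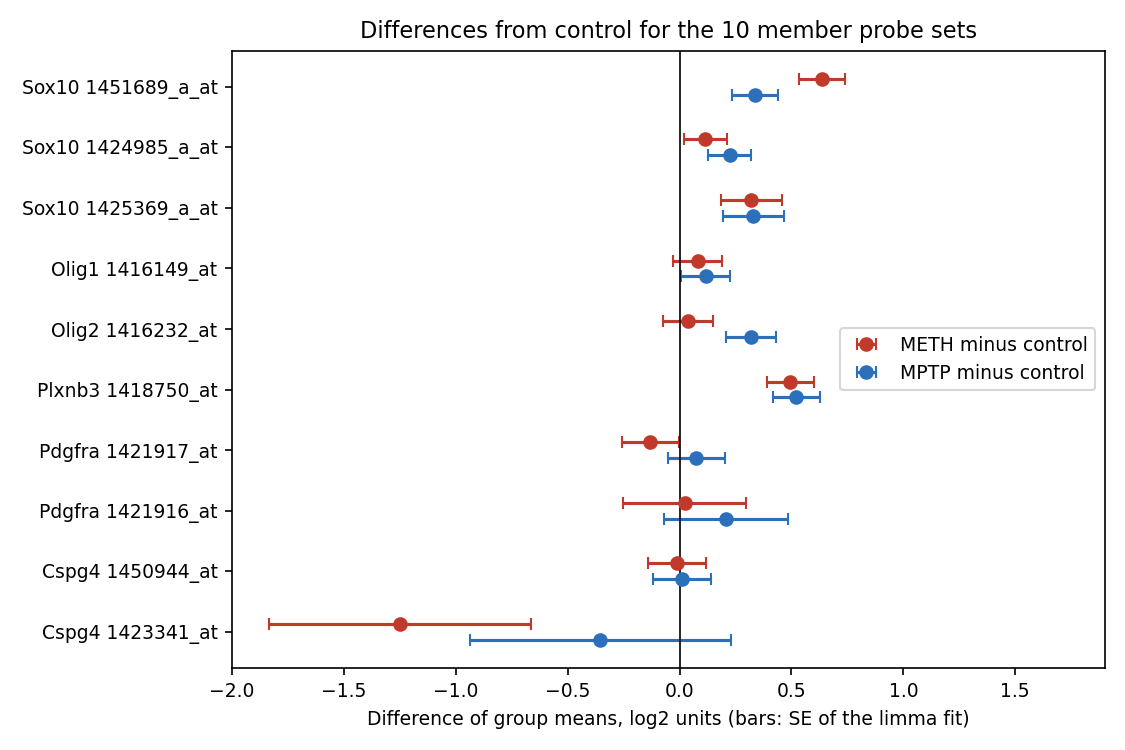
Difference of group means from control in log2 units for the 10 members' probe sets (points; bars: SE of the limma fit), METH in red and MPTP in blue. METH and MPTP coincide for Plxnb3 (0.50 and 0.52) and part for Olig2 (0.04 and 0.32) and for Sox10 1451689_a_at (0.64 and 0.34).

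The members were then compared with each other within groups, by correlating log2 deviations from the group mean over the 9 arrays, a measure that the differences between groups do not enter. For Sox10 on 1451689_a_at no relation to the other members was detected, and 3 arrays a group cannot show that there is none. Pearson's r was -0.54 with Olig1, -0.39 with Olig2, -0.43 with Plxnb3, 0.06 with Pdgfra and 0.50 with Cspg4. Spearman's rho ran from -0.40 to 0.42. None of these 5 passed (exact permutation within groups, two-sided, adjusted p of r at least 0.515 and of rho 0.884; the smallest p possible is 0.00463). Without METH 3 and MPTP 2, the arrays farthest from the median, r was -0.45, 0.37, 0.12, 0.09 and 0.71, so the sign with Olig2 and Plxnb3 rested on those arrays.

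On 1424985_a_at Sox10 followed Olig2 more closely, with r = 0.72 (exact permutation p = 0.0602) and rho = 0.87 (exact permutation p = 0.00926). Adjusted over all 15 pairs of a Sox10 probe set with a member, these p-values were 0.417 and 0.139 by exact permutation, and r without MPTP 2 and MPTP 3 was 0.57. With Olig1 and Plxnb3 this probe set had r = 0.57 and r = 0.48, with rho = 0.48 for both (adjusted exact permutation p of 0.417 for each r, 0.591 and 0.589 for rho). Between the deviations of 1451689_a_at and those of the other Sox10 probe sets no relation was detected either. Their r was -0.30 with 1424985_a_at and 0.17 with 1425369_a_at (rho = -0.25 and 0.22, exact permutation p at least 0.519).

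**Figure D4:**
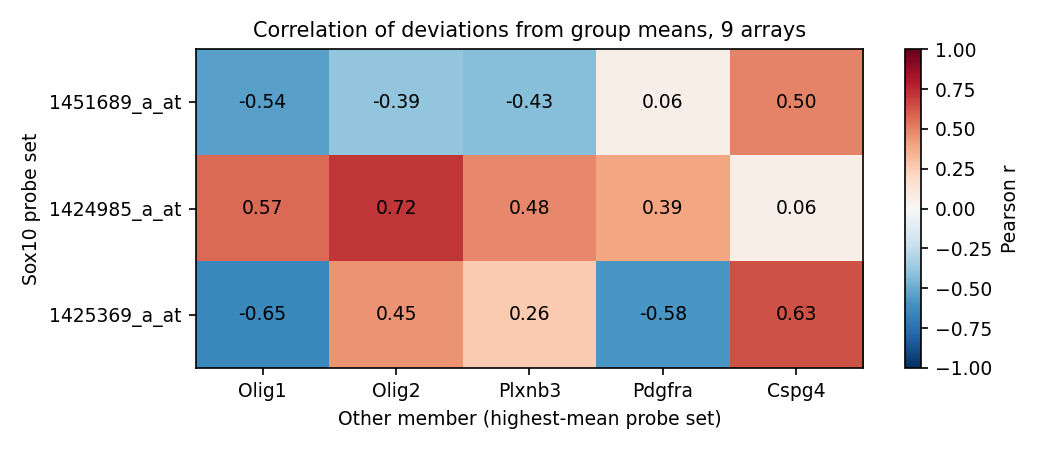
Pearson correlation over 9 arrays of log2 deviations from the group mean, for each Sox10 probe set (rows) with each other member (columns, highest-mean probe set). The row of 1451689_a_at is negative for Olig1 (-0.54), Olig2 (-0.39) and Plxnb3 (-0.43), and that of 1424985_a_at is positive for them (0.57, 0.72 and 0.48).

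Across the 9 arrays with group differences kept, the 10 genes most like Sox10 (1451689_a_at) by Pearson's r were Epb41l2, Adipor2, Jph1, Dgcr2, Zfp395, 1600012H06Rik, Abca1, Sypl, Fkbp8 and Tmem189, with r of 0.893 to 0.929 and rho of 0.85 to 0.983. None of the 29 myelin genes tested was among them. So short a list would seldom hold one, and nothing is read from their absence. Plxnb3 ranked 186 among the 7963 other genes by this measure (r = 0.74), Olig1 2932 and Olig2 3708. The 5 genes most like Plxnb3 were Ell (r = 0.986), the astrocyte water channel gene Aqp4 (0.929), Mettl17, Card19 and Ccdc166, with rho of 0.833 to 0.95. These ranks are a description of 9 arrays in 3 groups. Sox10, Plxnb3 and Olig2 were chosen with their group differences known, and this measure keeps those differences. Nothing is therefore read from the members' ranks.

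Myelin genes, the products of the lineage that Sox10 switches on, lay slightly higher in MPTP than in METH. Of 29 tested, 25 had a positive log2 difference in MPTP with a median of 0.18, and 17 did in METH with a median of 0.03; METH minus MPTP was negative for 26 of 29, with a median of -0.13. The size of this gap rested in part on METH 2, the array that stood apart: without it the METH median was 0.099 and the METH minus MPTP median -0.064. Without control 1, the control array with the lowest myelin signal, the medians were -0.056 in METH and 0.098 in MPTP. Over all genes, 51.8% were above control in MPTP, 50.3% in METH, and 47.1% had METH above MPTP. None passed the test in either direction (0 of 29 in each comparison). In MPTP 8 of 29 lay above all control arrays, where 6.13% of genes did, and in METH 4 of 29, where 6.48% did. Among the 8 were Cldn11, the tight junction gene of myelin (0.28 ± 0.08), and Gal3st1, which sulphates myelin lipids (0.28 ± 0.09). The major structural genes depended on the probe set. On their brightest probe sets Mbp had 0.04 ± 0.11 in MPTP and -0.01 ± 0.11 in METH, and Mobp 0.02 ± 0.11 and -0.06 ± 0.11. The dimmer Mobp 1450088_a_at had 0.38 ± 0.22 in MPTP and 0.41 ± 0.22 in METH (values of other than the brightest probe set come from the fit over all probe sets), and the 8 Mbp probe sets ran from -0.05 to 0.23 in MPTP and from -0.16 to 0.24 in METH. Cnp had 0.16 ± 0.09 in MPTP and 0.11 ± 0.09 in METH on its brightest probe set, 0.32 ± 0.16 and 0.25 ± 0.16 on 1418980_a_at, and 0.43 ± 0.24 and 0.53 ± 0.24 on 1449296_a_at. Mag and Mog, with 1 probe set each, had 0.15 ± 0.13 and 0.16 ± 0.16 in MPTP, against 0.12 ± 0.13 and -0.04 ± 0.16 in METH. The summed myelin signal was 298529 to 336662 in control mice, 316289 to 335562 after METH and 340446 to 360915 after MPTP. The MPTP arrays lay above the others in this sum. Apod, the apolipoprotein D gene, was the gene of the list that differed most from control in mean signal. Without it the sum was 283491 to 323491 in control, 301681 to 315942 after METH and 318787 to 344404 after MPTP. MPTP then overlapped with control and still lay above METH. Whether the share of white matter in the dissected tissue bears on the Olig2 and Sox10 values was not tested.

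Other transcription factors of the lineage did not share a direction. Of 22 tested, 0 passed in any comparison, 14 were above control in METH and 14 in MPTP, and the medians were 0.07 and 0.02. Sox9, the third SOXE gene beside Sox8 and Sox10 and mainly astrocytic in the adult, had 0.06 ± 0.21 in METH and 0.24 ± 0.21 in MPTP, and 0.47 ± 0.18 and 0.32 ± 0.18 on its other probe set. Myrf, the partner of Sox10 at myelin genes, had 0.09 ± 0.19 and 0.03 ± 0.19, and Nkx2-2, a factor of early differentiation, -0.05 ± 0.16 and 0.09 ± 0.16. Id2 and Id4, which encode inhibitors of basic helix-loop-helix factors, had -0.27 ± 0.18 and -0.02 ± 0.08 in METH, against -0.39 ± 0.18 and 0.02 ± 0.08 in MPTP. Their other probe sets did not all share these signs: Id2 had -0.17 and 0.64 in METH and -0.11 and 0.38 in MPTP, the second of each on a dim probe set, and Id4 had 0.23 and -0.10 in METH, with 0.26 and -0.0011 in MPTP. Nkx6-2 and Tcf7l2 were under the signal filter.

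Ligands and receptors that act on precursors centred near 0, with medians of 0.03 in METH and 0.02 in MPTP and 0 of 27 past the test. Pdgfa, a ligand of Pdgfra, had 0.08 ± 0.16 and 0.12 ± 0.16 (0.08 and -0.05 on its other probe set), and the neuregulin receptor gene Erbb3 0.08 ± 0.11 and 0.13 ± 0.11. The growth factor receptor gene Fgfr2 had 0.28 ± 0.16 in METH and 0.09 ± 0.16 in MPTP on its brighter probe set, and 0.26 ± 0.09 and 0.21 ± 0.09 on 1420847_a_at. Lpar1, a lysophosphatidic acid receptor gene, had 0.16 ± 0.19 and 0.14 ± 0.19 on its brightest probe set. On Lpar1 1417143_at it had 0.46 ± 0.14 and 0.60 ± 0.14 with all toxin arrays above all control arrays, and on 1426110_a_at 0.02 ± 0.15 and 0.26 ± 0.15. Igf1 was under the filter. Lingo1, chosen here after its value was seen, had the largest difference from control in size among genes of this list with no overlap between groups, -0.46 ± 0.14 in METH and -0.44 ± 0.14 in MPTP; it encodes a neuronal and oligodendroglial brake on myelination.

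Further precursor markers had medians of 0.15 in METH and 0.13 in MPTP, with 12 and 14 of 17 above control and 0 of 17 past the test. Ugt8a stands in this list and in the myelin list. Their summed signal was 56804 to 59612 in control mice, 62075 to 67110 after METH and 64799 to 65525 after MPTP, with no overlap between control and either toxin group. Without Ugt8a the sum was 48073 to 48960, 50576 to 57645 and 51808 to 53591, still with no overlap of either toxin group with control. Linear sums weigh bright genes most, and how often such sums part the groups for other genes was not tested. The 5 markers below control in METH were Vcan, C1ql1, Matn4, Cacng5 and Nxph1. In MPTP the 3 below control were Vcan, Matn4 and Cacng4. Pdgfra and Cspg4, which are not in this list, overlapped between all groups. The probe sets of Ptprz1, a receptor phosphatase gene also active in astrocytes, disagreed in sign: the brightest had 0.20 ± 0.19 in METH and 0.34 ± 0.19 in MPTP, 1427019_at 0.34 ± 0.10 and 0.34 ± 0.10, and 1418690_at -0.19 ± 0.11 and -0.15 ± 0.11. The kinase gene Fyn had 0.15 ± 0.09 and 0.20 ± 0.09, and 0.29 ± 0.12 and 0.22 ± 0.12 on its other probe set. The proteoglycan gene Vcan had -0.19 ± 0.11 and -0.32 ± 0.11 on its brightest probe set, with all toxin arrays below all control arrays. Its other probe sets overlapped with control, with -0.36 ± 0.18 and -0.21 ± 0.18 on 1421694_a_at and -0.08 ± 0.20 and 0.02 ± 0.20 on 1427257_at. Bcas1 and Neu4 had no probe set under the rule.

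Plexins and semaphorins other than Plxnb3 had medians of 0.06 in METH and 0.05 in MPTP, and 0 of 24 passed. Sema4d, whose product binds B-type plexins and is made by oligodendrocytes, lay above all control arrays in both toxin groups, with 0.33 ± 0.10 in METH and 0.47 ± 0.10 in MPTP, and did so on 1434596_at with 0.22 ± 0.10 and 0.30 ± 0.10. On its dimmest probe set, 1420823_at, both toxin groups overlapped with control, with 1.40 ± 0.49 in METH and 1.23 ± 0.49 in MPTP. Plxnb2, the other B-type plexin gene tested, had -0.27 ± 0.15 in METH and -0.01 ± 0.15 in MPTP. Fscn1, which encodes the actin bundler fascin, had -0.24 ± 0.08 and -0.13 ± 0.08 on its brightest probe set, below all control arrays in both. The other 3 Fscn1 probe sets overlapped with control, with 0.06, 0.33 and -0.04 in METH and -0.01, 0.19 and 0.01 in MPTP. Sema5a, the ligand gene for plexin B3, and Met, a receptor that couples to B-type plexins, were under the filter, and Plxnb1 had no probe set under the rule. On the dim Sema5a 1422167_at all toxin arrays lay above all control arrays, with 0.63 ± 0.16 in METH and 0.47 ± 0.16 in MPTP. Its other probe set, 1434776_at, overlapped with control, with 0.30 ± 0.28 and 0.14 ± 0.28.

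**Figure D5:**
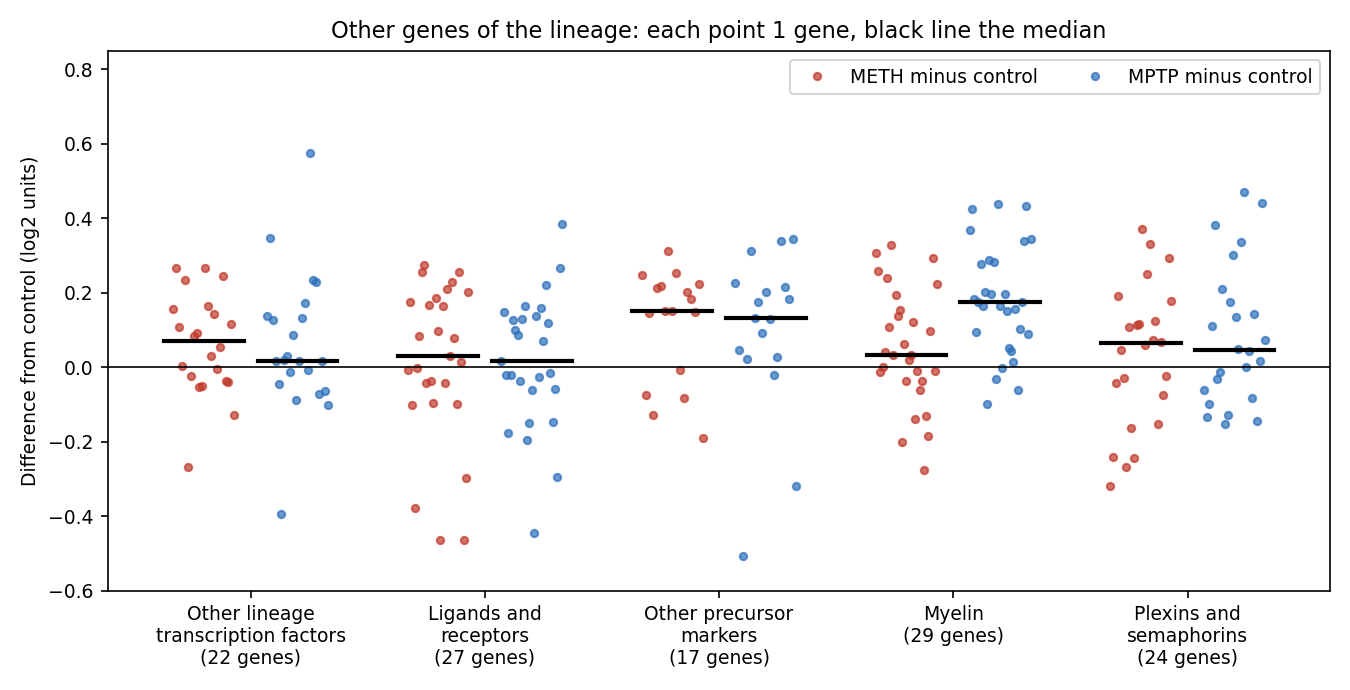
Difference from control in log2 units for each gene tested in 5 lists of lineage genes (points: genes; black line: median), METH in red and MPTP in blue. The myelin medians are 0.03 in METH and 0.18 in MPTP (0.099 in METH without METH 2), and the precursor marker medians 0.15 and 0.13.

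Summed signals of markers of other cells differed between groups beside the Sox10 and Plxnb3 values. The summed signal of 12 microglial markers was 54030 to 61675 in control mice, 65202 to 68402 after METH and 63577 to 67234 after MPTP, and that of 15 astrocyte markers 136162 to 143290, 144574 to 154236 and 148682 to 158359. Both toxin groups lay above control in both sums. Without Ctss the microglial sums still did not overlap with control (47389 to 53634 in control, 54822 to 58794 after METH, 54124 to 57689 after MPTP). Gfap made up part of the gap in the astrocyte sum. Without it the sums were 130759 to 136854 in control, 133617 to 142159 after METH and 136657 to 144763 after MPTP. Both then overlapped with control, MPTP only from 136657 to 136854. With Gfap counted, 3 of 15 astrocyte markers lay above all control arrays in METH and 5 of 15 in MPTP, and 0 below. Of all genes 6.48% and 6.13% lay above. The median log2 difference of the astrocyte list was 0.07 in METH, with 4 of 15 negative, and 0.17 in MPTP, with 5 negative. The sum of 12 neuronal markers was 252518 to 273737 in control mice, 243302 to 252404 after METH and 240795 to 258802 after MPTP, with METH below control. Without Snap25 the neuronal sum of METH (211629 to 220994) overlapped with that of control (217938 to 235102). Schwann cells also express Sox10; the 3 markers of that list tested had medians of -0.21 in METH and -0.23 in MPTP, and 1 of them, Mal, is shared with the myelin list. Of the choroid plexus and ependymal list 3 were tested, summing to 14220 to 67496, 10514 to 53228 and 5258 to 35933, which overlapped between groups. Nearly all of this sum was Ttr, with -0.16 ± 0.96 in METH and -1.76 ± 0.96 in MPTP. Without Ttr the sums were 1906 to 2677, 1959 to 2936 and 2259 to 2592. METH 3 and MPTP 2, the arrays left out of the Sox10 correlations above, were the lowest of their groups in the full sum. The part of these cells in the members' values was not tested.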

How the data were processed

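Signals of 9 arrays, 3 per group, were taken from the series' value table. The deposited intensity values are linear (0.342 to 84013) with equal trimmed means of 2501, so the authors had scaled the arrays. Per the submitters' processing notes RMA was used, version not given, but the values do not have RMA's usual log form, so the summary of each probe set is unsettled. The annotation that matched is of a smaller array than the design text names. Detection calls were not used here.

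The log2 of each deposited value was taken, with no offset and no further normalization. Genes came from GEO's platform annotation; 20351 of 20380 probe sets with 1 symbol had a gene ID in RefSeq (GRCm38.p6). The gene fit kept the highest-mean probe set of each gene and means over the 40th percentile (9.53, a signal of 741), 7964 genes. Members' probe sets come from the same fit over all probe sets with no filter. All 9 arrays entered 1 fit by limma 3.58.1 (R 4.3.3; lmFit, eBayes; 6 residual and 3.93 prior degrees of freedom), two-sided, with Benjamini-Hochberg adjustment over all genes. The fit was run on simulated data with independent noise. A minimum of calls was required there only for the largest change, which exceeds the members' differences, so it does not bear on their detection. An exact permutation test of 3 arrays against 3 has a smallest p of 0.1 and was not run between groups.

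Members and lists were chosen with earlier results of these data known. Named genes are all members, a fixed choice from the lists, the genes most like Sox10 and Plxnb3, and genes past the test. Lingo1, Apod, Ctss, Snap25, Ugt8a, Ttr, C1ql1, Matn4, Cacng4, Cacng5 and Nxph1 were named after their values were seen. Gfap, Apod, Ctss, Snap25, Ugt8a and Ttr were left out of sums because each differed most from control in mean signal within its list. Of 7 planned pairs with Sox10, 5 had values. Precision is limited by the number of arrays. Same-numbered arrays were treated as unpaired. Their deviations correlated at -0.152 to 0.047, which does not settle whether the numbers mark a shared batch.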

Additional observations from a re-analysis of the deposited data

How the results depend on the processing

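The count of genes past the test, 1 in METH and 1 in MPTP, was 0 in both with arrays centred on their medians and with the replicate number as a block. In MPTP it was 0 with only the 2 groups compared and with array weights, and 2 with no filter. Leaving out 1 array gave 0 to 2 in METH and 0 to 2 in MPTP. Whether a shared replicate number marks a shared batch is not settled by the correlations of same-numbered arrays, -0.152 to 0.047. Over 18 to 20 alternatives, 0 members passed in any comparison. The Sox10 difference in METH ranged from 0.357 (mean of all probe sets) to 0.697 (without METH 3), and Plxnb3 from 0.409 to 0.552 in METH and 0.478 to 0.552 in MPTP. Olig2 in MPTP ranged from 0.246 to 0.37. The sign of Cspg4 changed under 4 alternatives in METH and 5 in MPTP, that of Olig2 in METH under 4, and that of Pdgfra in METH under 1. The myelin median ranged from -0.056 to 0.108 in METH, from 0.098 to 0.234 in MPTP and from -0.164 to -0.064 in METH minus MPTP.

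The correlations of Sox10 deviations turned sign with the probe set. With the mean of all probe sets r was 0.469 for Olig2 and 0.198 for Plxnb3, and with quantile normalization -0.041 for Pdgfra. The other Sox10 probe sets, added after seeing the data, gave 0.568 for Olig1, 0.717 for Olig2 and 0.478 for Plxnb3 on 1424985_a_at, and 0.453 for Olig2, 0.258 for Plxnb3 and -0.579 for Pdgfra on 1425369_a_at. Leaving out 1 array gave -0.222 to 0.454 for Pdgfra and -0.64 to 0.212 for Plxnb3. The cause was not tested. Limits are the dim probe sets of Cspg4 and Pdgfra, 3 arrays a group, and 2 members with no probe set.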
